A study of Mus musculus with 13 samples.

Results

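The paired immunoglobulin-like type 2 receptors (PILR), the CD300 receptors and the triggering receptors expressed on myeloid cells (TREM) were measured in bone marrow-derived macrophages of mice with and without histone deacetylase 3 (HDAC3). The set holds 10 genes: Pilra, Pilrb1, Pilrb2, Cd300a, Cd300e, Cd300lb, Cd300ld, Cd300lf, Trem1 and Trem2. Members were taken by gene name from the non-control probes of the arrays, which gave 16 probes for 10 of 27680 genes. Cd300ld was found through the older name that the array design gives it. A probe was kept where some group had it well above background on all of its arrays. All 10 genes and all 16 probes passed, as did 20546 genes and 29059 probes in all. Some members were chosen by earlier results of these data: the IL-4 response of control cells chose Pilrb1, Pilrb2 and Cd300e, and HDAC3 loss in vehicle chose Cd300e. These contrasts are therefore described and not tested below.

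RNA was hybridised to 13 one-colour arrays from 4 groups. The groups were HDAC3-null cells given IL-4 (KO IL-4, 3 arrays), HDAC3-null cells given vehicle (KO vehicle, 3 arrays), control cells given IL-4 (control IL-4, 3 arrays) and control cells given vehicle (control vehicle, 4 arrays). KO cells came from C57BL/6 mice with loxP sites around exons 4 to 7 of Hdac3 and Cre under the lysozyme M promoter, which acts in myeloid cells. Control cells carried the floxed gene without Cre, so genotype and Cre cannot be told apart. All mice were males of 12 to 16 weeks, and marrow was cultured for 6 days in 30% L929-conditioned medium, a source of macrophage colony-stimulating factor. Cells then received 10 ng/mL IL-4, the cytokine of alternative macrophage activation, or 0.1% bovine serum albumin as vehicle, for 24 hours. The design asks what IL-4 does in KO cells, what HDAC3 loss does under IL-4 and at rest, and whether the IL-4 response differs by genotype. Nothing in the labels states that arrays within a group hold RNA of different mice or cultures. The p-values then cover no more than the array-to-array spread seen here, which may be technical.

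PILR, CD300 and TREM proteins sit on the surface of myeloid cells and come as inhibitory and activating relatives. Inhibitory members such as PILRα, CD300a and CD300lf carry cytoplasmic tyrosine motifs (ITIMs) that recruit the phosphatases SHP-1 and SHP-2. Activating members have short tails and signal through adaptors with activating tyrosine motifs (ITAMs), chiefly DAP12 (gene Tyrobp) or the Fc receptor gamma chain (gene Fcer1g), which recruit the kinase SYK. In macrophages they set thresholds for cytokine release and for the uptake of dying cells and lipids.

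The sequences that measure the findings are shown first. The Pilr genes lie side by side on the minus strand of chromosome 5. In the mm9 build of the files, the Pilra probe below lies at chr5:138264800-138265232 and the second Pilrb2 probe at chr5:138312445-138312821. Each matches across an intron, so its 60 bases come from more than 1 exon. The brighter Cd300lf probe at chr11:114985682-114987474 (minus strand) is shown because the other probe of that gene moved the opposite way.
Pilra probe: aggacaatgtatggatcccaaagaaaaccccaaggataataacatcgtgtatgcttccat
Pilrb2 probe: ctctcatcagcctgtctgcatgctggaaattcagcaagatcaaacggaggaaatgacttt
Cd300lf probe: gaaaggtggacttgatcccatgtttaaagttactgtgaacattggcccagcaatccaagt
Over 114 pairs of probes for different members, the longest shared run was 8 bases and at most 26 bases were identical without gaps. The single Pilrb1 probe (chr5:138293523-138293582) is listed by the files under RefSeq transcripts of both Pilrb1 and Pilrb2, so its signal is uncertain between these near-identical genes. The main Pilrb2 probe (chr5:138307331-138307390) and the other Pilrb2 probe are listed under Pilrb2 alone. No member probe was saturated.

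The 250 bases before the starts of the Pilr genes are shown because these genes moved together and because the windows are near copies. The sequences are from RefSeq (GRCm38.p6, minus strand): Pilra at chr5:137836279-137836528, Pilrb1 at chr5:137858050-137858299 and Pilrb2 at chr5:137871759-137872008. Capitals mark a match to GAAANNGAAA, an element like that bound by interferon regulatory factors, and a match to TTGCNNAA, which C/EBP factors can bind, on either strand.
Pilra: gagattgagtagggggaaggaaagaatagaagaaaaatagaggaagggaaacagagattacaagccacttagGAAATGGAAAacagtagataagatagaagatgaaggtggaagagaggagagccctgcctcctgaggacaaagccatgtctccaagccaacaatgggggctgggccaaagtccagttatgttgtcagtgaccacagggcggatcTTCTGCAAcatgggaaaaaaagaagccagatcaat
Pilrb1: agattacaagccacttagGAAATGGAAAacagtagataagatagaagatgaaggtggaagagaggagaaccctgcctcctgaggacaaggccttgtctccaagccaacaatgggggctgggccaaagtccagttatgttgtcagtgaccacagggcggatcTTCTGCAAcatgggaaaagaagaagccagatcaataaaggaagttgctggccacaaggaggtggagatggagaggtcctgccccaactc
Pilrb2: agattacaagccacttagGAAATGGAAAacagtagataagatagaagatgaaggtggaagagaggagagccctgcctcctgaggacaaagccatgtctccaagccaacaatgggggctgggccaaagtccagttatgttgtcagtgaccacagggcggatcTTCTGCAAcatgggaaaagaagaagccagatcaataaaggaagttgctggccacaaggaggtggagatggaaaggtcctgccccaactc
Pilrb1 and Pilrb2 shared 246 of 250 bases (98.4%). Pilra, at an offset of -54 bases, shared 195 of 196 bases with Pilrb2 (99.49%) and 192 of 196 with Pilrb1 (97.96%). The next most alike pair among the 10 members, Cd300lb with Cd300lf, shared 36.2% over 221 bases. The GAAANNGAAA letters occurred in 3 members, all of them Pilr genes, and in 2.98% of 32851 promoter windows of the same length. The TTGCNNAA letters occurred in the Pilr genes and Cd300a, and in 9.56% of windows. Since the Pilr windows share their letters, their matches are not independent. TTCNNNNGAA, the spacing that STAT6 prefers, was in 0 of the 10 member windows and in 5.85% of all windows. TTCNNNGAA, the spacing of other STAT factors, was in the Cd300e and Trem1 windows (7.02% of all windows), GAGGAAGT, a PU.1 sequence, in the Cd300ld window (2.44%), and TGANTCA, an AP-1 sequence, in the Trem2 window (6.75%). These matches are a description of letters in a window.

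All levels below are log2 signal relative to the 75th percentile of the same array. Apart from the sums over marker lists, they are compared only within a probe. Hdac3 itself, the check of the genotype labels, averaged -3.57 ± 0.457 in KO IL-4 arrays and -2.05 ± 0.259 in control IL-4 arrays (SD, n = 3 each), a log2 difference of -1.53 with a limma adjusted p of 0.00376. Where its probe lies relative to the deleted exons was not analysed here, and signal remained in KO cells. Between 56.2% and 83.2% of non-control spots were well above background on an array. All 8 macrophage markers examined were well above background on all 13 arrays. The position on the slide differed with the group throughout, and the effects of each cannot be told apart, while the 4 slides each held several groups.

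**Figure D1:**
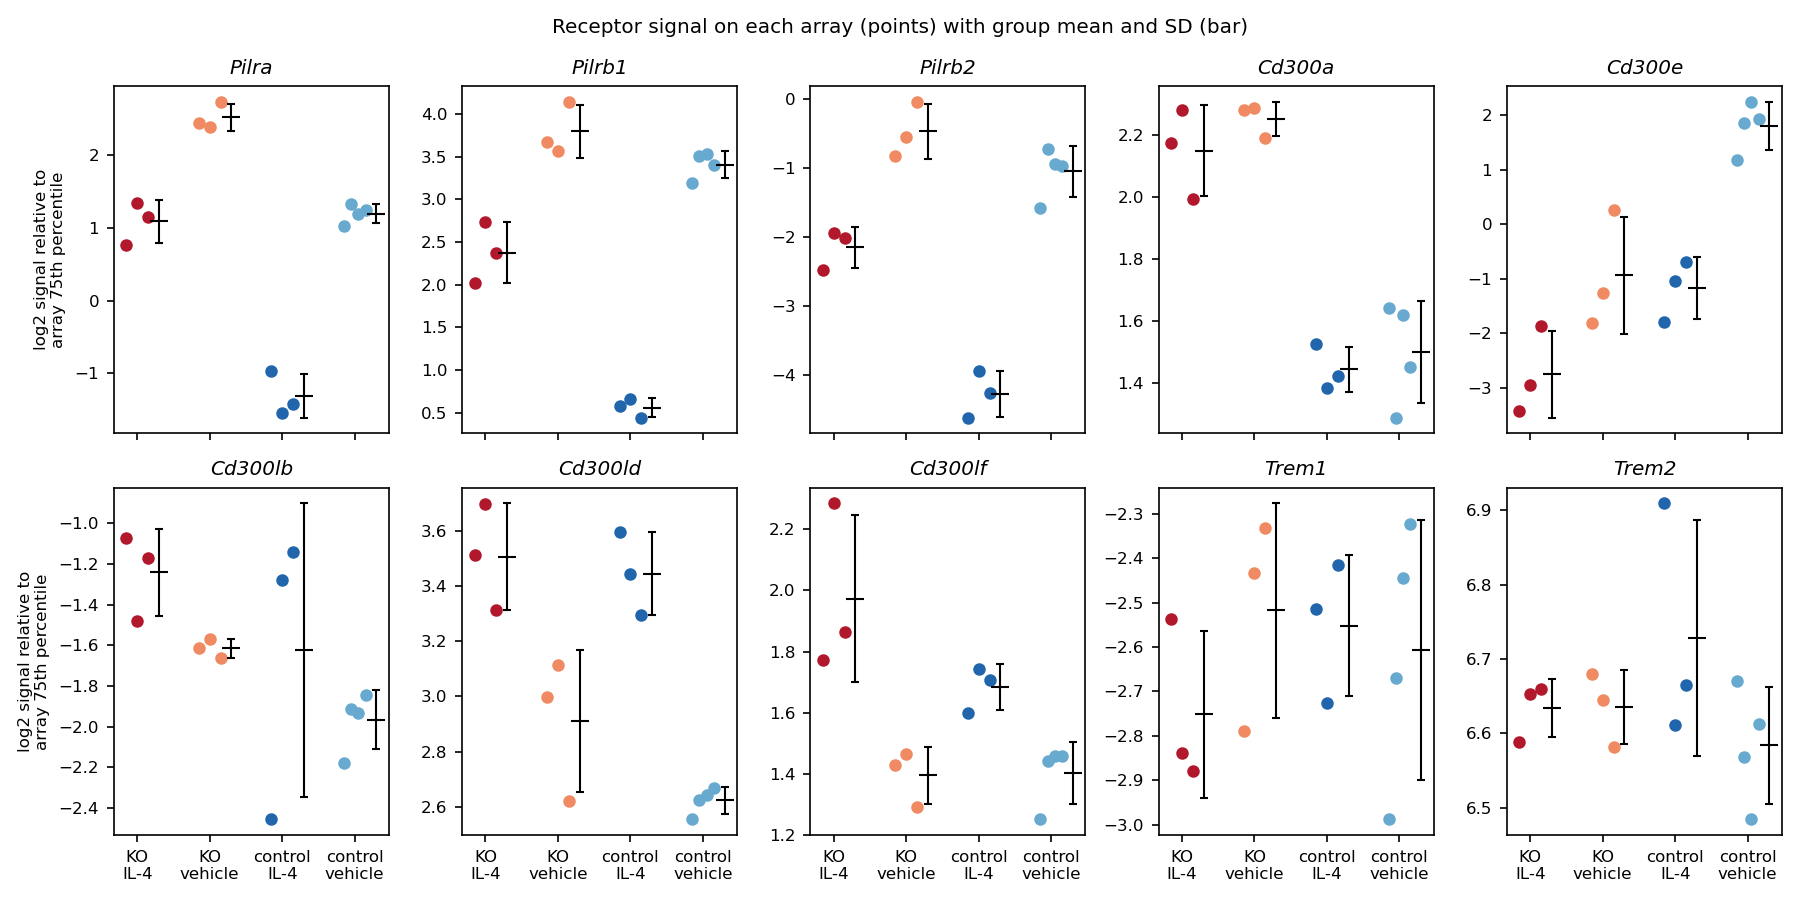
Log2 signal relative to the array's 75th percentile (y axis, a separate scale for each gene) on each of the 13 arrays (points) for the 10 receptor genes by group, with group mean and SD beside the points. The 3 Pilr genes were lowest on all control IL-4 arrays, and Cd300e was highest on all control vehicle arrays.

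The Pilr genes fell with IL-4 in KO cells, and under IL-4 they were higher in KO than in control cells. PILRα is the inhibitory receptor of the pair and binds sialylated O-glycosylated ligands. Pilra was at 0.77, 1.34 and 1.15 in KO IL-4 arrays, at 2.45, 2.39 and 2.73 in KO vehicle arrays, at -0.96, -1.54 and -1.41 in control IL-4 arrays and at 1.03, 1.33, 1.19 and 1.24 in control vehicle arrays. The KO vehicle arrays were the highest and the control IL-4 arrays the lowest, with no overlap with other groups. The KO IL-4 arrays overlapped the control vehicle arrays. With IL-4 in KO cells Pilra fell by 1.43 ± 0.180 (log2 difference ± SE), to 37.0% of the KO vehicle signal (limma adjusted p = 0.00132). HDAC3 loss under IL-4 gave a difference of 2.39 ± 0.180 (limma adjusted p = 7.88e-05), with a 95% interval of 4.00- to 6.90-fold.

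PILRβ1 is the activating counterpart and pairs with DAP12. Pilrb1 was at 2.02, 2.73 and 2.37 in KO IL-4 arrays, at 3.67, 3.57 and 4.15 in KO vehicle arrays, at 0.58, 0.66 and 0.44 in control IL-4 arrays and at 3.19, 3.51, 3.53 and 3.41 in control vehicle arrays. The KO IL-4 arrays lay between the control IL-4 arrays and all vehicle arrays, without overlap. Pilrb1 fell by 1.42 ± 0.192 with IL-4 in KO cells (limma adjusted p = 0.00198) and was higher by 1.82 ± 0.192 in KO IL-4 than in control IL-4 cells (limma adjusted p = 0.000473). Pilrb1 was chosen by the IL-4 response of control cells, which rests on the same control IL-4 arrays. Low values there favour a higher KO value under IL-4, so that test is not independent of the choice.

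Pilrb2 encodes a close relative of PILRβ1. Its main probe was at -2.49, -1.94 and -2.01 in KO IL-4 arrays, at -0.82, -0.55 and -0.04 in KO vehicle arrays, at -4.62, -3.95 and -4.26 in control IL-4 arrays and at -1.58, -0.72, -0.94 and -0.96 in control vehicle arrays. The order of the groups was that of Pilrb1, and the vehicle groups overlapped each other. Pilrb2 fell by 1.68 ± 0.267 with IL-4 in KO cells (limma adjusted p = 0.00589). Under IL-4 it was higher in KO cells by 2.13 ± 0.267 (limma adjusted p = 0.00117). As for Pilrb1, the choice of Pilrb2 rests on the same control IL-4 arrays and favours this direction.
The main probe was well above background on 1 of 3 control IL-4 arrays, and the second probe on 0 of 3. The second probe therefore gave a bound, which is approximate since only 2 of 3 KO IL-4 arrays were well above background. It was at least 1.93-fold higher in KO IL-4 than in control IL-4 cells. Its measured means there were -3.20 and -5.42, a difference with a limma adjusted p of 0.00106 over probes. The bound sets the mean of the brighter group against the lowest signal well above background on each dim array, or the probe's own signal where that was higher. With normexp background correction and quantile normalisation the Pilrb2 difference under IL-4 was 0.92 (limma adjusted p = 0.00795).

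Marker signals were summed on the linear scale over probes and the sum taken as log2, so the brightest markers weigh most. For the 8 macrophage markers this sum was 8.72 to 8.83 in KO IL-4 and 8.85 to 8.94 in KO vehicle arrays. It was 8.59 to 8.67 in control IL-4 and 8.92 to 9.08 in control vehicle arrays. The sum was lowest in control IL-4 arrays, as were the Pilr genes. In vehicle the sums of KO and control arrays overlapped. There the KO arrays lay above the control arrays for Pilra and Pilrb1, and the groups overlapped for Pilrb2. By limma's adjusted p, 0 of the 8 rose and 2 fell with IL-4 in KO cells, and 3 were higher and 1 lower with HDAC3 loss under IL-4, with list medians of -0.10 and 0.33. Among them Cd14, the lipopolysaccharide co-receptor, fell by 1.36 with IL-4 in KO cells (limma adjusted p = 0.000498) and was higher by 0.88 in KO IL-4 than in control IL-4 cells (limma adjusted p = 0.00619). The other called markers are not named here, and 1 of them was lower with HDAC3 loss under IL-4. The part of these markers in the Pilr differences was not tested. In these bulk samples, fewer cells of a type and less RNA per cell cannot be told apart.

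Of the 10 members, 3 fell and 1 rose with IL-4 in KO cells, where 1.11% of all 20546 genes fell and 1.13% rose. The falls were those of the Pilr genes. The Pilrb1 probe may also measure Pilrb2, so Pilrb1 and Pilrb2 may not be separate counts. The rise was that of the brighter Cd300lf probe, and the other probe of that gene went the opposite way. The median log2 difference was -0.17 over the 10 members and -0.06 over all genes. Groups did not overlap for 4 members that were lower and 3 that were higher with IL-4, against 10.4% and 8.14% of all genes. The comparison shares the KO vehicle arrays with the contrast that chose Cd300e. Fitted on these groups alone, Pilrb1 (adjusted p = 0.0762) and Pilrb2 (adjusted p = 0.0557) missed the limma threshold of 0.05, while Pilra passed.

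With HDAC3 loss under IL-4, 4 members were higher and 0 were lower by limma's test, against 1.99% and 1.67% of all genes. At an unadjusted p under 0.05, which 15% of all genes passed in either direction, Cd300e was lower and Cd300lf higher as well. The median log2 difference was 0.34 over the 10 members and -0.03 over all genes. Groups did not overlap for 5 members that were higher and 1 that was lower in KO cells, against 8.79% and 9.05% of all genes. The comparison shares the control IL-4 arrays with the contrast that chose Pilrb1, Pilrb2 and Cd300e. For Pilrb1 and Pilrb2 that choice favours a higher KO value, so their part of the count is not independent of it. Here too Pilrb1 and Pilrb2 may not be separate counts.

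**Figure D2:**
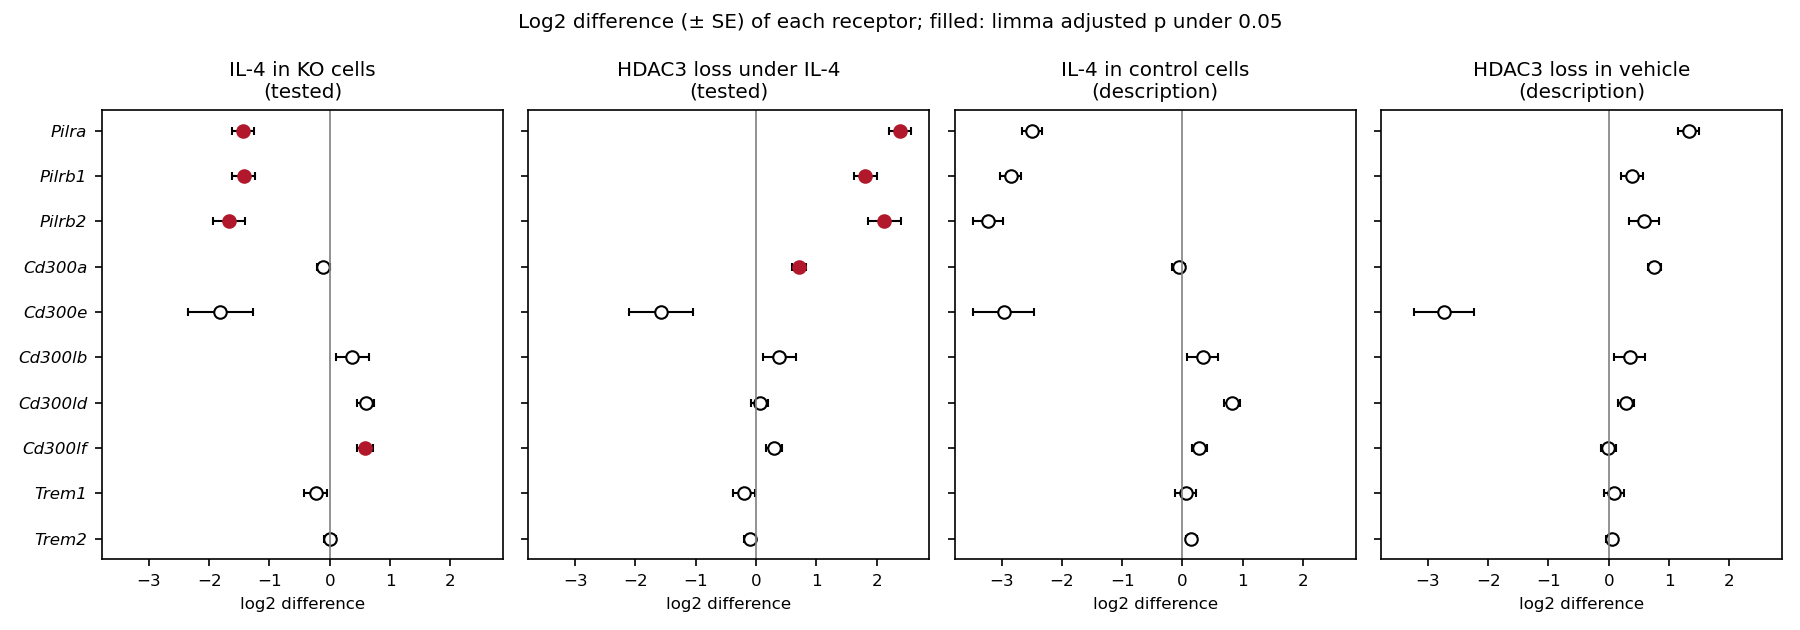
Log2 difference (x axis, ± SE) of each receptor gene in 4 comparisons, with filled points for a limma adjusted p under 0.05 in the comparisons that were tested. Pilra, Pilrb1 and Pilrb2 lie below 0 for IL-4 in KO cells and above 0 for HDAC3 loss under IL-4, while Cd300e lies below 0 in all 4 comparisons.

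Cd300a was the other member higher with HDAC3 loss under IL-4. CD300a is an inhibitory ITIM receptor that binds phosphatidylserine and phosphatidylethanolamine on dying cells. Cd300a was at 2.18, 2.28 and 1.99 in KO IL-4 arrays, at 2.28, 2.29 and 2.19 in KO vehicle arrays, at 1.52, 1.38 and 1.42 in control IL-4 arrays and at 1.64, 1.29, 1.62 and 1.45 in control vehicle arrays. On this main probe every KO array lay above every control array, and within a genotype the treatments overlapped. Under IL-4 the difference was 0.71 ± 0.116 (limma adjusted p = 0.00574), a 95% interval of 1.37- to 1.95-fold. With IL-4 in KO cells it was -0.10 ± 0.116 (limma adjusted p = 0.764; 95% interval -0.36 to 0.15). The second Cd300a probe gave 0.39 ± 0.160 under IL-4 and did not pass (limma adjusted p = 0.281 over probes). On it KO IL-4 array 15, at -1.26, lay below control vehicle array 4, at -1.13. Within each treatment its KO arrays lay above its control arrays. Fitted on the compared groups alone, the main probe missed the threshold (limma adjusted p = 0.110).

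CD300lf is an ITIM receptor that binds ceramide and sphingomyelin and, in the mouse, is the entry receptor of murine norovirus. Its brighter probe was at 1.77, 2.28 and 1.86 in KO IL-4 arrays, at 1.43, 1.46 and 1.29 in KO vehicle arrays, at 1.60, 1.74 and 1.71 in control IL-4 arrays and at 1.25, 1.44, 1.46 and 1.46 in control vehicle arrays. All IL-4 arrays lay above all vehicle arrays. Cd300lf rose by 0.58 ± 0.132 with IL-4 in KO cells (limma adjusted p = 0.0464).
The other Cd300lf probe (chr11:114977533-114977592) went the opposite way. It was at -1.71, -2.39 and -1.85 in KO IL-4 arrays, at -1.10, -0.99 and -0.66 in KO vehicle arrays, at -2.45, -2.50 and -3.27 in control IL-4 arrays and at -1.93, -1.33, -2.42 and -2.59 in control vehicle arrays. Its KO IL-4 arrays lay below its KO vehicle arrays, with a log2 difference of -1.07 ± 0.328 that did not pass (limma adjusted p = 0.158 over probes). The mean of both probes gave -0.24 (limma adjusted p = 0.605), and the rise passed in 8 of 27 alternative settings, whose adjusted p ran to 0.605. The direction of Cd300lf therefore differs between its probes. The files list the brighter probe under no RefSeq transcript matched here, and the other probe under Cd300lf.

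**Figure D3:**
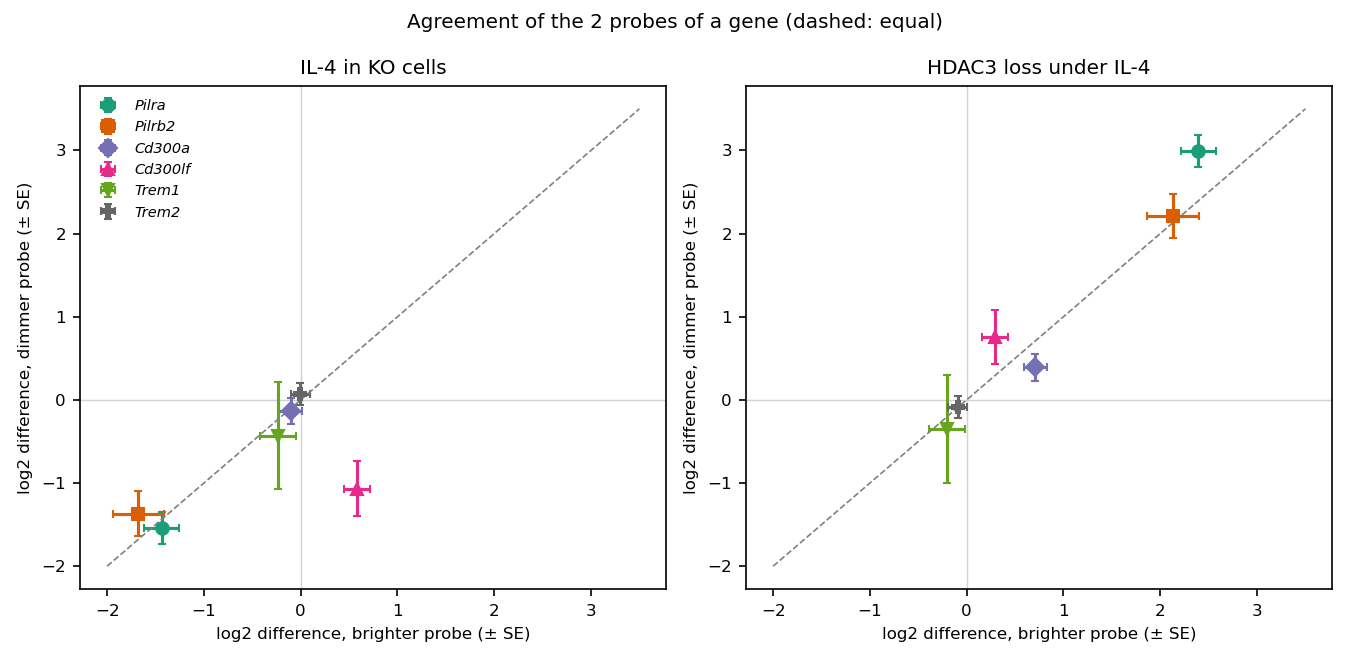
Log2 difference (± SE) of the dimmer probe (y axis) against the brighter probe (x axis) for the 6 genes with 2 probes, for IL-4 in KO cells and for HDAC3 loss under IL-4, with equality dashed. Pilra and Pilrb2 agree in sign in both panels, and Cd300lf lies at 0.58 on the x axis and -1.07 on the y axis for IL-4 in KO cells.

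The probe pairs of the other genes pointed the same way where a member was called. For Pilra, the second probe (chr5:138263347-138263406) fell by 1.54 ± 0.197 with IL-4 in KO cells (limma adjusted p = 0.00160 over probes). Under IL-4 it was higher in KO cells by 2.99 ± 0.197 (limma adjusted p = 4.32e-05 over probes). The files list this second Pilra probe under no RefSeq transcript matched here, and the main Pilra probe under Pilra. The second Pilrb2 probe fell by 1.37 ± 0.268 with IL-4 in KO cells (limma adjusted p = 0.0218 over probes).

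Cd300e had the widest range over the 13 arrays among the members. In human monocytes CD300e is an activating receptor that pairs with DAP12. Cd300e was at -3.43, -2.94 and -1.87 in KO IL-4 arrays, at -1.81, -1.26 and 0.26 in KO vehicle arrays, at -1.79, -1.04 and -0.69 in control IL-4 arrays and at 1.18, 1.84, 2.23 and 1.93 in control vehicle arrays. The control vehicle arrays were the highest and the KO IL-4 arrays the lowest, while KO vehicle and control IL-4 arrays overlapped. With IL-4 in KO cells the difference was -1.81 ± 0.534 and did not pass (limma adjusted p = 0.131). Under IL-4 the difference of KO from control cells was -1.58 ± 0.534 and did not pass either (limma adjusted p = 0.168). With slide as a fixed block both passed, at -1.81 (limma adjusted p = 0.00292) and -1.79 (limma adjusted p = 0.00455), and with slide as a random block neither did (limma adjusted p = 0.103 and 0.131). Within slides 1, 2 and 3 the IL-4 difference in KO cells was -1.62, -1.68 and -2.14. Within slides 1 and 2, which hold both IL-4 groups, the genotype difference was -1.64 and -1.90. Cd300e was chosen by contrasts that rest on the same KO vehicle and control IL-4 arrays. Low values there favour a smaller fall in both comparisons, so these tests are not independent of the choice.

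Monocyte markers were set beside Cd300e. Of 8 such markers, 6 were kept and 4 were well above background on every array. The log2 of the summed linear signal of the 6 kept markers was 2.15 to 2.42 in KO IL-4 and 2.52 to 3.49 in KO vehicle arrays. It was 4.28 to 4.73 in control IL-4 and 4.92 to 5.38 in control vehicle arrays. KO vehicle array 7 was the highest of its group both in Cd300e and in this sum. Under IL-4, Ly6c2, which marks inflammatory monocytes, fell by 3.40 in KO relative to control cells (limma adjusted p = 0.000261), and Ccr2, the receptor for monocyte chemoattractants, fell by 1.10 (limma adjusted p = 0.00915). The other 4 kept markers, Plac8, Nr4a1, Treml4 and Ace, had differences of 0.12 to 1.13 that did not pass, and the list median was 0.18, against -0.03 over all genes. No monocyte marker passed with IL-4 in KO cells by limma's adjusted p, and 1 had an unadjusted p under 0.05. Their part in the Cd300e values was not tested.

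Cd300ld and Cd300lb encode activating members. In the mouse, CD300ld signals through the Fc receptor gamma chain, and CD300lb through DAP12. Cd300ld was at 3.51, 3.70 and 3.31 in KO IL-4 arrays, at 3.00, 3.11 and 2.62 in KO vehicle arrays, at 3.60, 3.44 and 3.29 in control IL-4 arrays and at 2.56, 2.63, 2.64 and 2.67 in control vehicle arrays. All IL-4 arrays lay above all vehicle arrays. In KO cells the IL-4 difference was 0.60 ± 0.143 and just missed the threshold (limma adjusted p = 0.0599), and it passed in 5 of 27 alternative settings. Under IL-4 the genotype difference was 0.06 ± 0.143 (limma adjusted p = 0.894; 95% interval -0.25 to 0.37).
Cd300lb lay at -1.48 to -1.07 in KO IL-4, at -1.66 to -1.57 in KO vehicle, at -2.46 to -1.14 in control IL-4 and at -2.18 to -1.85 in control vehicle arrays. Its control IL-4 range rests on array 9, the lowest of all 13. The IL-4 difference in KO cells was 0.37 ± 0.275 (limma adjusted p = 0.635), and the genotype difference under IL-4 was 0.38 ± 0.275 (limma adjusted p = 0.589). Without control IL-4 array 9 the genotype difference was -0.03 (limma adjusted p = 0.948).

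Neither TREM gene passed the test in either comparison. TREM-1 amplifies inflammatory responses and TREM-2 supports lipid sensing and phagocytosis, both through DAP12. Trem2 lay at 6.59 to 6.66 in KO IL-4, at 6.58 to 6.68 in KO vehicle, at 6.61 to 6.91 in control IL-4 and at 6.48 to 6.67 in control vehicle arrays, and all groups overlapped. The 95% interval of its log2 difference was -0.22 to 0.21 for IL-4 in KO cells (limma adjusted p = 0.997) and -0.31 to 0.12 for HDAC3 loss under IL-4 (limma adjusted p = 0.729). Trem1 lay at -2.88 to -2.54 in KO IL-4, at -2.79 to -2.33 in KO vehicle, at -2.73 to -2.42 in control IL-4 and at -2.99 to -2.32 in control vehicle arrays. Its interval was -0.64 to 0.17 for IL-4 in KO cells (limma adjusted p = 0.660) and -0.60 to 0.20 for HDAC3 loss under IL-4 (limma adjusted p = 0.691). The second Trem1 probe varied more between arrays of a group, with SDs of 0.579 to 1.18.

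The contrasts that chose members are given as a description. In control cells the log2 difference with IL-4 was -2.50 ± 0.168 for Pilra, -2.85 ± 0.179 for Pilrb1, -3.23 ± 0.250 for Pilrb2 and -2.97 ± 0.499 for Cd300e. The largest difference the other way was 0.82 ± 0.134 for Cd300ld. Groups did not overlap for 4 members that were lower and 2 that were higher with IL-4, where 8.44% and 8.29% of all genes did so. The second Pilrb2 probe was at least 3.45-fold lower in control IL-4 than in control vehicle cells, with measured means of -5.42 and -2.37. This bound is approximate too, since only 3 of 4 control vehicle arrays were well above background. In vehicle, the difference of KO from control cells was 1.33 ± 0.168 for Pilra, 0.39 ± 0.179 for Pilrb1, 0.58 ± 0.250 for Pilrb2, 0.75 ± 0.109 for Cd300a and -2.73 ± 0.499 for Cd300e. Groups did not overlap for 4 members that were higher and 1 that was lower in KO vehicle cells, where 8.86% and 8.07% of all genes did so. The comparisons share arrays with the tested ones.

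The difference of the IL-4 responses between genotypes (interaction) contains the contrasts that chose Pilrb1, Pilrb2 and Cd300e, so nothing is read from the count of members that pass. By limma's adjusted p, 0 members passed, while 1 of 20546 genes did (0.00487% of all genes, lower, and 0 higher). At an unadjusted p under 0.05, which 3.93% of all genes passed, the 3 Pilr genes passed. The log2 differences between the responses were 1.07 ± 0.246 for Pilra (limma adjusted p = 0.669), 1.43 ± 0.262 for Pilrb1 (0.305) and 1.55 ± 0.366 for Pilrb2 (0.669). With normexp background correction and quantile normalisation the Pilrb2 value was 0.47 (limma adjusted p = 0.999), and its probe was well above background on 1 of 3 control IL-4 arrays. Pilrb1 passed only with trended and robust variance (limma adjusted p = 0.0258). For Cd300e the difference was 1.15 ± 0.731 and did not pass.

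**Figure D4:**
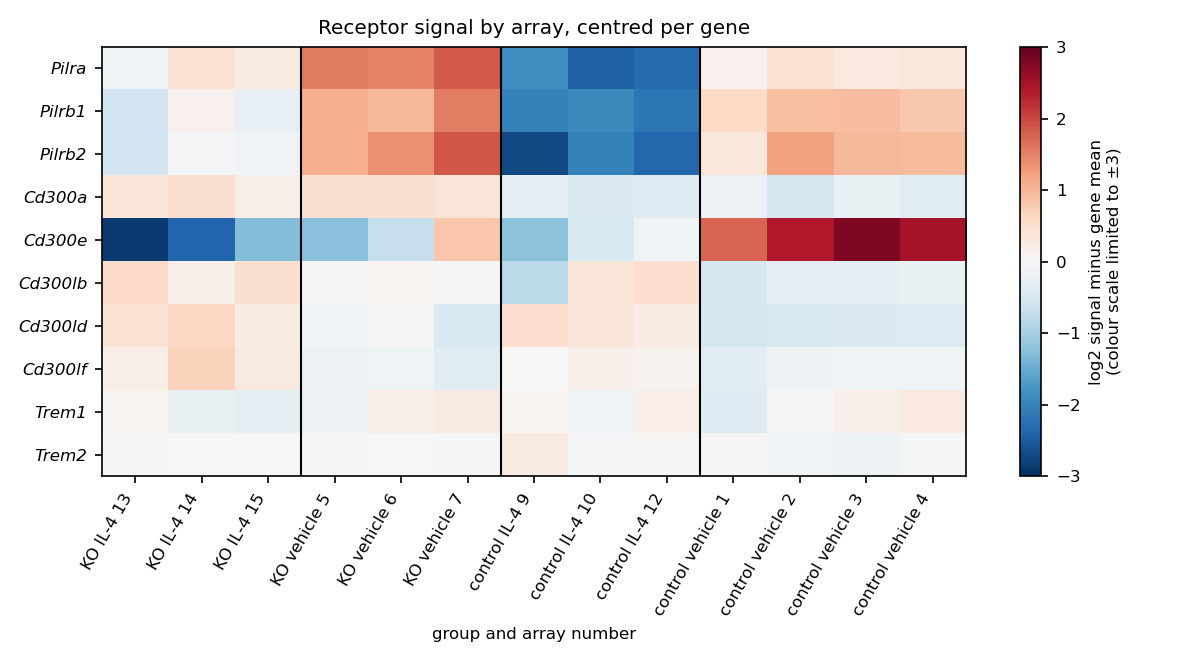
Log2 signal of each receptor gene (rows) on each array (columns, by group), minus the gene's mean over the 13 arrays, with colours limited to 3 either way. The Pilr rows share a pattern, with the lowest values in control IL-4 arrays, and the Trem2 row spans -0.16 to 0.27.

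The genes around these receptors were taken from lists. Among 17 measured adaptors and kinases of activating receptors, 0 rose and 1 fell with IL-4 in KO cells, and 3 were higher and 1 lower with HDAC3 loss under IL-4. Pik3ap1, an adaptor that links receptors to PI3-kinase, fell by 0.66 with IL-4 in KO cells (limma adjusted p = 0.0206) and by 0.54 with HDAC3 loss under IL-4 (limma adjusted p = 0.0431). Hcst, which encodes the adaptor DAP10, was higher by 0.73 (limma adjusted p = 0.0258), the kinase gene Syk by 0.72 (limma adjusted p = 0.0200) and the Src-family kinase gene Lyn by 0.53 (limma adjusted p = 0.0238) with HDAC3 loss under IL-4. Tyrobp, the DAP12 gene, had differences of 0.07 and 0.06 that did not pass in limma's adjusted test. The list medians were -0.14 and 0.06, against -0.06 and -0.03 over all genes.

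Of 12 phosphatases and other inhibitors of receptor signalling, 0 passed limma's adjusted p in either comparison, with 3 and 1 at an unadjusted p under 0.05. Ptpn6, the SHP-1 gene, had a log2 difference of -0.39 with IL-4 in KO cells (limma adjusted p = 0.303) and 0.02 with HDAC3 loss under IL-4 (limma adjusted p = 0.971). Of 7 other CD300, TREM and related receptor genes, 0 passed, with 1 at an unadjusted p under 0.05 in each comparison by limma. Of 12 other paired receptors, 1 fell with IL-4 in KO cells and 1 was higher with HDAC3 loss under IL-4. Pira2, an activating receptor of a family of near-identical genes whose signals may mix, fell by 0.80 (limma adjusted p = 0.00954), and Lair1, an inhibitory collagen receptor, was higher by 0.42 (limma adjusted p = 0.0375). Of 17 ligands and shedding enzymes, 1 passed in these comparisons. Apoe, whose protein binds TREM-2, was higher by 0.48 with HDAC3 loss under IL-4 (limma adjusted p = 0.00797).

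The genes whose pattern was most like that of each member over the 13 arrays are given as a description, and all points share the group structure. For Pilra they were Tmsb4x, Sgsh and Tifa (Pearson r of 0.979, 0.975 and 0.971 across arrays). For Pilrb1 they were Sash1, Cd14 and Cpd (0.983, 0.973 and 0.973), and for Pilrb2 Cpd, Sash1 and Nuak1 (0.973, 0.972 and 0.971). For Cd300e they were Ap1s2, Hpgd and Aif1 (0.986, 0.984 and 0.977), and for Cd300a Lhfpl2, Fabp5 and AK083642 (0.984, 0.983 and 0.981). For Cd300ld they were Ier5l, Atp6v0a1 and Traf5 (0.969, 0.966 and 0.964), and for Cd300lb an unnamed probe, Dedd and Cenpb (0.927, 0.924 and 0.923). For Cd300lf they were Ndufs1, an unnamed probe and Vrk3 (0.952, 0.950 and 0.931). For Trem1 they were Asphd1, Pdzk1 and Map6 (0.819, 0.812 and 0.787), and for Trem2 LOC100047028, Frrs1 and Agpat1 (0.890, 0.881 and 0.879).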

How the data were processed

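RNA of 13 macrophage samples was labelled with Cy3 after amplification, per the labels' protocols. The deposited scanner files hold linear spot intensity from Agilent Feature Extraction 10.5.1.1, per the file headers; the submitters' processing notes name version 9.53, and limma without a version. The other deposited columns, such as background and outlier flags, are per the file headers. The authors' value table holds processed intensity whose normalisation is not given in the sources used here, and its log2 values correlated at 0.998 or more with the scanner values on every array. Spots that were controls or outliers were left out, spots of a probe averaged, and log2 signal taken minus the array's 75th percentile. Left out were 101 of 41174 non-control probes, for which some array had outlier spots alone. A probe stayed where all arrays of some group had it well above background, and the brightest probe stood for its gene; 80.3% of probes carried a symbol of the reference table. All 4 groups were fitted together with R 4.3.3 and limma 3.58.1 (two-sided moderated tests, Benjamini-Hochberg adjustment over 20546 genes, calls under 0.05), and each member probe in the same fit over all kept probes. Scripts were tested on simulated data. The number of arrays limits the precision.

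The members, the gene lists and the tests were chosen with earlier results of these data known. Named genes are all members, Hdac3, up to 4 called genes of each list, and the 3 genes most like each member; Tyrobp and Ptpn6, and the kept monocyte and dendritic cell markers that were not called, were named after their values were seen. Alternatives covered normalisation, background, probe filter and rule, slide, variance model, the groups fitted, array weights and leaving out arrays.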

Additional observations from a re-analysis of the deposited data

Results flagged for a closer look

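Of 16 probes checked in the group of 4 arrays, 2 had an array far from the others by Dixon's ratio, where chance alone marks about 1 in 20. The brighter Cd300lf probe was at 1.25 on control vehicle array 1, below the other 3 arrays at 1.44 to 1.46. The second Trem2 probe was at 4.05 on control vehicle array 2, below the other 3 arrays at 4.19 to 4.22.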

How the results depend on the processing

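Across 27 alternatives, Pilra passed for IL-4 in KO cells and for HDAC3 loss under IL-4 in all 27, with log2 differences of -1.56 to -1.28 and 2.20 to 2.69. Pilrb1 passed in 26 and 27, Pilrb2 in 25 and 26 of 26 (the filter on all 4 groups left it out), and Cd300a in 26 of 27 for HDAC3 loss under IL-4. With only the 2 groups compared, IL-4 in KO cells left 1 member lower, against 3, and 0 higher. The count of members higher with IL-4 in KO cells, 1 in the fit reported, was 2 with quantile normalisation, normexp, the authors' values, probes well above background in all 4 groups, or trended and robust variance. It was 0 with median scaling, no filter, the mean over probes, each probe tested, slide as a fixed block, or without the 2 arrays with the lowest share well above background, and 0 to 1 on leaving out each array. The mean over probes reversed Cd300lf to -0.24, and left 1 member higher and not overlapping with IL-4 in control cells, against 2. With slide as a fixed block, 1 member, Cd300e, was lower with HDAC3 loss under IL-4, against 0. Trended and robust variance gave 1 member, Pilrb1, for the interaction, against 0. Normexp gave -1.56 for Pilrb2 with IL-4 in control cells, and leaving out array 9 gave 0.76 for Cd300lb there, against 0.34, and turned its difference for HDAC3 loss under IL-4 to -0.03, against 0.38. The cause of these changes was not tested, beyond the smaller number of arrays where groups or arrays were left out. Median scaling moved the median of all genes by 0.11 (log2) for IL-4 in KO cells.

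All genes called numbered 461 for IL-4 in KO cells, and 293 with median scaling, 825 with normexp, 118 with only these groups, 771 with trended and robust variance, 270 without the 2 arrays lowest in share well above background, and 265 and 303 without KO vehicle array 7 or 6. For HDAC3 loss under IL-4 they numbered 753, and 426 with median scaling, 97 with only these groups, 1420 with array weights, 489 without the 2 arrays lowest in share well above background, and 464 and 453 without control IL-4 array 10 or 12. The interaction called 1 gene, and up to 10 with trended and robust variance. No paired analysis by replicate number was possible because the groups share no array numbers in the labels; slides, which hold arrays of several groups, were the block in its place. Signal over background limits the Pilrb2 probes in control IL-4 arrays, where folds are bounds or rest on 1 of 3 arrays.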

Other observations

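Markers of other cell types and of stress were measured on the same arrays. The dendritic cell list kept 4 of 8 markers, and Ccr7, Clec9a and Cd209a were not well above background on any array. The log2 of the summed linear signal of the 4 kept markers was 5.36 to 5.71 in KO IL-4 and 2.92 to 3.86 in KO vehicle arrays. It was 4.93 to 5.21 in control IL-4 and 1.79 to 2.05 in control vehicle arrays. Itgax, the integrin CD11c, rose by 2.21 with IL-4 in KO cells (limma adjusted p = 0.00116). The other 3 kept markers, Flt3, Zbtb46 and Xcr1, had differences of -0.34 to -0.21 that did not pass, and the list median was -0.23, against -0.06 over all genes. The neutrophil list kept 8 of 11 markers, Elane was above background on no array, and 0 passed in either tested comparison by limma's adjusted p, with 2 and 1 at an unadjusted p under 0.05. Of 6 kept lymphocyte markers, 0 passed limma's adjusted p with IL-4 in KO cells and 1 with HDAC3 loss under IL-4. That was Klrb1c, higher by 1.84 (limma adjusted p = 0.0349). The list median there was 0.16, against -0.03 over all genes, and the summed signals of KO IL-4 and control IL-4 arrays overlapped. The log2 of the summed linear signal of the eosinophil list was 4.45 to 4.60 in KO IL-4 and 4.30 to 4.52 in KO vehicle arrays. It was 4.71 to 5.12 in control IL-4 and 5.20 to 5.41 in control vehicle arrays. No mast cell, basophil, eosinophil or fibroblast marker passed limma's adjusted p in the tested comparisons, and 1 eosinophil marker had an unadjusted p under 0.05 with HDAC3 loss under IL-4.

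Of 16 measured stress and RNA quality genes, Ier3, an immediate early gene, rose by 1.23 with IL-4 in KO cells (limma adjusted p = 0.00192). With HDAC3 loss under IL-4, Fos was higher by 0.72 (limma adjusted p = 0.00263) and Egr1, another immediate early gene, lower, with a log2 difference of -0.55 (limma adjusted p = 0.00744). The medians of this list were 0.31 and 0.15, against -0.06 and -0.03 over all genes.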
